A study of Homo sapiens with 4 samples.

Results

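The genes described here are 10 regulators and markers of the epithelial-mesenchymal transition, the programme in which epithelial cells loosen their junctions and take on features of motile mesenchymal cells. They were the 10 listed genes CDH1, OVOL1, CDH2, VIM, FN1, SNAI1, SNAI2, TWIST1, ZEB1 and ZEB2, and every probe of the array that carries one of these names was taken. This gave 17 of 58183 probes, and 10 of the 43305 gene names with a value. Of the 17 probes, 15 matched a RefSeq accession with the same symbol, and the other 2 belong to a predicted transcript that the array files under TWIST1.

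Gene expression was measured on 4 arrays, 1 for each parental line, HN4 and HN30, and 1 for each resistant line. Both parental lines are established human lines of head and neck squamous cell carcinoma (HNSCC). HN4/DDP and HN30/DDP, which the sample labels call HN4_CR and HN30_CR, are the cisplatin-resistant lines derived from them by raising the drug step by step. The resistant cells were in medium with 20 μM cisplatin, for 48 h by the labels, while no cisplatin is named for the parental cells; all 4 lines grew in DMEM with serum. Drug in the medium and acquired resistance therefore cannot be told apart. Each resistant line is 1 selected population, and no source used here says whether it is a single clone.

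The zinc finger factors SNAI1 (Snail), SNAI2 (Slug), ZEB1 and ZEB2 and the helix-loop-helix factor TWIST1 are the core inducers of the transition. The first 4 bind E-box sequences and repress CDH1, the gene of E-cadherin, which joins epithelial cells at adherens junctions. N-cadherin (CDH2), the intermediate filament protein vimentin (VIM) and fibronectin (FN1) are the usual markers of the mesenchymal state. OVOL1 is an epithelial factor that represses inducers of the transition. In squamous carcinomas intermediate states, with epithelial and mesenchymal genes expressed side by side, are common.

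The sequences that carry the measurements are of 2 kinds. The first are probes of 60 bases, shown for VIM, FN1 and TWIST1. VIM was the mesenchymal marker with the largest difference, though with another background correction, given below, CDH2 was. FN1 rests on 1 probe, and TWIST1 differed in opposite directions in the 2 lines. Coordinates are those of the array files on hg19. The coordinates of the VIM and FN1 probes cover more than the 60 bases of the probe, as those of a probe across an exon junction do, at chr10:17278347-17279256 on the plus strand and chr2:216288217-216288895 on the minus strand. The TWIST1 probe lies at chr7:19156462-19156521 on the minus strand.

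VIM probe: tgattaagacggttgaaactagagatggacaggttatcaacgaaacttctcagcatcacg
FN1 probe: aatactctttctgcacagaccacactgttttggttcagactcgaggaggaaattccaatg
TWIST1 probe: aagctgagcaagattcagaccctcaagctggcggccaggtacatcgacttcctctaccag

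The second are promoters, shown for VIM, CDH2 and ZEB1, the 3 members past the threshold used below that have a window in the promoter table. Each is the 250 bases before the outermost start of the gene in GRCh38.p14, and the letters CANNTG, the general E-box, are in capitals. The windows are VIM at chr10:17227991-17228240 (plus strand), CDH2 at chr18:28177131-28177380 (minus strand) and ZEB1 at chr10:31318167-31318416 (plus strand).

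VIM promoter: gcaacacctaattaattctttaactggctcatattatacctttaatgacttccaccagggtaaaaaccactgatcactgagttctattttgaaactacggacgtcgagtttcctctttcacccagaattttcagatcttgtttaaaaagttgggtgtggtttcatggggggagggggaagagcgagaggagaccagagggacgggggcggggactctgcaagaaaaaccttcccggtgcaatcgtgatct
CDH2 promoter: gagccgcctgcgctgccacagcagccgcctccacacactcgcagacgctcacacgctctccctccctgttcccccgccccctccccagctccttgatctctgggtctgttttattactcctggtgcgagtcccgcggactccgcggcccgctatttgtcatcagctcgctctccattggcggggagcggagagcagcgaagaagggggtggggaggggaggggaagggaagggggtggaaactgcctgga
ZEB1 promoter: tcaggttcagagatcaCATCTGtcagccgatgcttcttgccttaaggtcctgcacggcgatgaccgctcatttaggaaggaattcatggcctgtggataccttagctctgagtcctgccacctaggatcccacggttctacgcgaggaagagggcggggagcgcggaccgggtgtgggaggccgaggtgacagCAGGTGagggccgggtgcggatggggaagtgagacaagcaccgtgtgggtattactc

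The E-box form that Snail and ZEB factors prefer, CACCTG or on the other strand CAGGTG, was in 17.5% of all 35116 windows of this length, and CANNTG, which includes it, was in 61.8%. ZEB1 held CATCTG at position -234 and CAGGTG at position -57, counted back from the start. The VIM, CDH2 and FN1 windows held no CANNTG, and the ZEB2 window held only CACATG, at position -180. For CDH1, SNAI1, SNAI2, TWIST1 and OVOL1 no promoter was used here.

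Levels are log2 signals relative to the 75th percentile of the same array, so a level of 0 is as bright as that percentile, and the brightest probe stands for each gene. A probe is called dim where the scanner software did not mark it as well above background. The scanner SD is the error the software gives for a spot, combined over both arrays for a difference. It holds nothing of the variation between cultures, and with 1 array per condition the difference within a line can be given but not tested; a fit over both lines is given further on. The 75th percentile of the signal was 444 to 496 and 55.3% to 63.6% of the spots were well above background, most on HN30/DDP. Of the 10 genes, 9 were well above background on HN4, HN4/DDP and HN30/DDP and 8 on HN30.

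The arrays carried the markers of squamous epithelium, all 10 of 10 well above background on 3 arrays and 9 of 10 on HN30/DDP, where KRT6A was dim. In the order HN4, HN4/DDP, HN30, HN30/DDP their summed signals were 71240, 85131, 64059 and 37992. Most of each sum was SFN. Of the 10 markers, 7 had a difference above 0 in HN4/DDP and 5 in HN30/DDP. Of 8 fibroblast markers, COL1A2, COL3A1, DCN, LUM and PDGFRA were dim and COL1A1, PDGFRB and FAP were well above background on every array. The summed signal of the list was 2328, 834, 830 and 520 in the same order. Most of it was FAP on the parental arrays and COL1A1 on the resistant arrays. Of 5 endothelial markers, 2 to 3 were well above background on each array: CDH5 was so on every array, VWF on 3 and PECAM1 on HN4 and HN30/DDP, while KDR and TEK were dim on every array, and the list summed to 103 to 161. Of the leukocyte markers, PTPRC, CSF1R and CD14 were well above background on every array and CD3E on HN30/DDP alone, and the list summed to 3668, 6274, 1848 and 19237, most of it CD14.

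**Figure D1:**
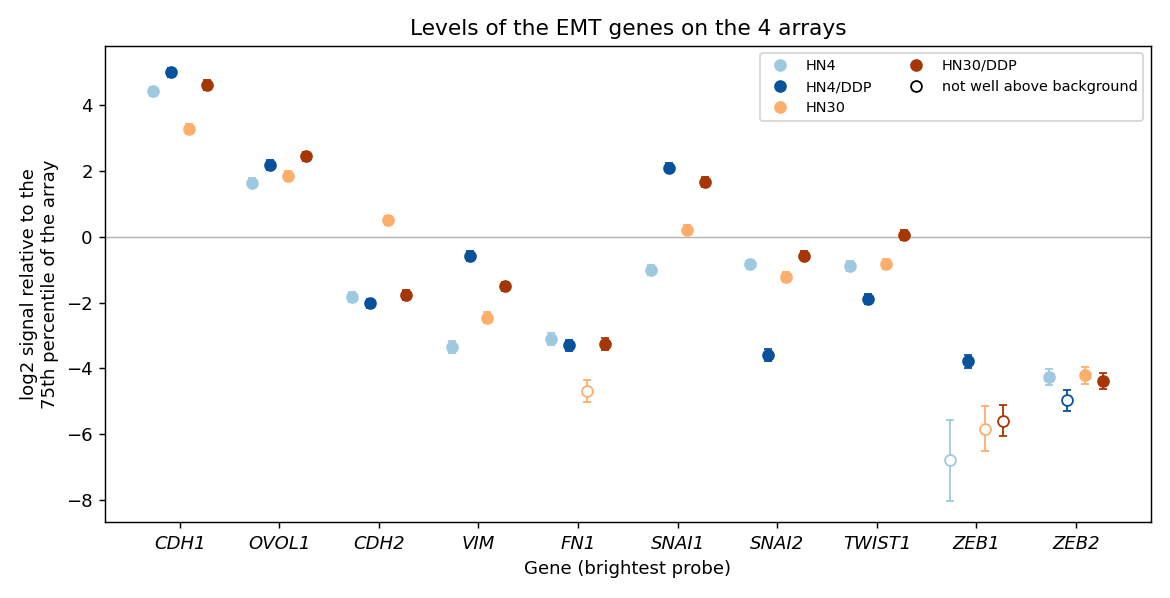
Level of each gene (log2 signal relative to the 75th percentile of the array, brightest probe) on the 4 arrays; bars are the scanner SD, and hollow points are not well above background. CDH1 and OVOL1 were above 0 on every array, ZEB1 was well above background only on HN4/DDP, and SNAI1 was higher on both resistant arrays than on both parental ones.

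CDH1 and OVOL1, the epithelial members of the set, were higher in both resistant lines. CDH1 had levels of 4.40 in HN4 and 4.98 in HN4/DDP, and 3.27 in HN30 and 4.60 in HN30/DDP. It was 1.49-fold higher in HN4/DDP than in HN4 (log2 0.58, scanner SD 0.20) and 2.53-fold higher in HN30/DDP than in HN30 (1.34, scanner SD 0.20). Both resistant arrays lay above both parental arrays, and HN4 and HN30/DDP, neighbours in that order, differed by 0.20, no more than the scanner SD of 0.20. With arrays scaled to their medians HN30/DDP lay below HN4. The array carries 10 spots of the CDH1 probe (chr16:68869214-68869273, hg19, plus strand), and the SD between them was 0.022 to 0.031 on each array. The scanner SD of CDH1 is the mean over these spots, not reduced for their number. The value in HN30 depended on the scaling and was 0.92 when arrays were scaled to their medians and 1.86 after quantile normalization.

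OVOL1, the epithelial repressor of the transition, had levels of 1.63 in HN4 and 2.16 in HN4/DDP, and 1.84 in HN30 and 2.43 in HN30/DDP. It was 1.45-fold higher in HN4/DDP (log2 0.53, scanner SD 0.20) and 1.50-fold higher in HN30/DDP (0.59, scanner SD 0.20). Both parental arrays lay below both resistant ones, with a gap of 0.32 between HN30 and HN4/DDP, and all gaps between neighbours were 0.21 to 0.32, close to the scanner SD of 0.20. The difference in HN30 was 0.17 with arrays scaled to their medians and 0.94 after quantile normalization.

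The mesenchymal markers did not move as a group: VIM was higher in both resistant lines, CDH2 was lower in HN30/DDP, and FN1 differed only in HN30, where it was dim. VIM had levels of -3.35 in HN4 and -0.60 in HN4/DDP, and -2.46 in HN30 and -1.51 in HN30/DDP, from signals of 48.4, 328, 80.8 and 168. It was 6.74-fold higher in HN4/DDP than in HN4 (log2 2.75, scanner SD 0.23) and 1.93-fold higher in HN30/DDP than in HN30 (0.95, scanner SD 0.22). Neighbours in the order of the 4 levels were 0.89 to 0.95 apart, and both resistant arrays lay above both parental ones. Of the 8 fibroblast markers, 5 were dim on every array. Of the other 3, COL1A1 was 1.73 and 2.43 (log2) higher in HN4/DDP and HN30/DDP, as VIM was higher, FAP had differences of -2.74 and -2.41, and PDGFRB had -0.012 and 0.63. Their part in the VIM result was not tested. In whole-culture RNA fewer cells that express a gene and less RNA per cell cannot be told apart. With normexp background correction, which models the background and adds an offset, the VIM difference in HN4 was 1.78, and in HN30 it was 0.53 when arrays were scaled to their medians.

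CDH2 had levels of -1.84 in HN4 and -2.03 in HN4/DDP, and 0.49 in HN30 and -1.78 in HN30/DDP. HN30 stood apart, 2.27 above the next array, while the other 3 lay within 0.19 and 0.053 of their neighbours, under the scanner SD of 0.21 between them. CDH2 was thus 4.83-fold lower in HN30/DDP than in HN30 (log2 -2.27, scanner SD 0.21), and in HN4/DDP its difference of -0.19 was within the scanner SD of 0.21. The second CDH2 probe gave levels of -3.19, -3.45, -1.48 and -3.63 in the same order and differences of -0.26 in HN4/DDP and -2.14 in HN30/DDP (4.42-fold lower). Both probes therefore placed HN30 highest. With normexp the HN30 difference was -1.88.

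FN1 has 1 probe on the array, designed on transcript variant NM_054034, and says nothing of transcripts without that sequence. Its levels were -3.11 in HN4, -3.30 in HN4/DDP, -4.68 in HN30, where it was dim, and -3.26 in HN30/DDP. FN1 was at least 2.59-fold higher in HN30/DDP than in HN30, measured against the dimmest signal well above background on that array. In HN4/DDP the difference was -0.19 with a scanner SD of 0.24, and the 3 measured arrays lay within 0.19 of each other. With normexp the HN30 difference was 0.35.

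SNAI1 was the inducer that was higher in both resistant lines. Its levels were -1.01 in HN4 and 2.09 in HN4/DDP, and 0.21 in HN30 and 1.65 in HN30/DDP, from signals of 246, 2115, 514 and 1504. It was 8.57-fold higher in HN4/DDP than in HN4 (log2 3.10, scanner SD 0.21) and 2.71-fold higher in HN30/DDP than in HN30 (1.44, scanner SD 0.20). Both resistant arrays lay above both parental arrays, and every gap between neighbours, 0.44 to 1.44, was over the scanner SD of 0.20 to 0.21. Over the 7 other ways of processing, the HN30 difference ran from 1.02 to 1.65, and with normexp the HN4 difference was 2.80. The probe lies at chr20:48605170-48605229 on the plus strand of hg19.

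SNAI2, of the same family, differed in opposite directions. Its levels were -0.84 in HN4 and -3.59 in HN4/DDP, and -1.23 in HN30 and -0.57 in HN30/DDP, from signals of 275, 41.2, 190 and 322. It was 6.70-fold lower in HN4/DDP than in HN4 (log2 -2.75, scanner SD 0.23) and 1.57-fold higher in HN30/DDP than in HN30 (0.65, scanner SD 0.21). HN4/DDP stood apart, 2.36 below the next array, and the other 3 arrays were 0.27 and 0.38 apart as neighbours. With normexp the HN4 difference was -1.72, and with median scaling the HN30 difference was 0.23.

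TWIST1, like SNAI2, was lower in HN4/DDP and higher in HN30/DDP. Its brightest probe, printed above, had levels of -0.89 in HN4 and -1.90 in HN4/DDP, and -0.83 in HN30 and 0.05 in HN30/DDP. TWIST1 was 2.01-fold lower in HN4/DDP (log2 -1.01, scanner SD 0.21) and 1.84-fold higher in HN30/DDP (0.88, scanner SD 0.21), while the 2 parental arrays were 0.053 apart, within the scanner SD of 0.21. The second mRNA probe had levels of -3.96, -4.71, -3.77 and -2.53 and differences of -0.75 (scanner SD 0.37) and 1.24 (scanner SD 0.27). The difference in HN30 was 0.46 with median scaling and 1.32 as the mean of all probes.

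The other 2 probes named TWIST1 were designed on the predicted transcript XR_428085 and lie 115744 bases from the mRNA probes. One of them was well above background only on HN30/DDP, at -4.65. The other was so on HN4 at -4.17 and on HN30/DDP at -4.61, which made it at least 1.76-fold lower in HN4/DDP and at least 1.01-fold higher in HN30/DDP. Being designed on another transcript, these probes are described apart and enter only the mean of all probes.

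ZEB1 was measurable on 1 array. Its brighter probe had a level of -3.78 in HN4/DDP and was dim at -6.78 in HN4, -5.82 in HN30 and -5.58 in HN30/DDP. ZEB1 was at least 1.98-fold higher in HN4/DDP than in HN4; the measured log2 difference was above 2, with a scanner SD of 1.24, as the HN4 signal is dim. With normexp that difference was 0.54. The second ZEB1 probe was dim on all 4 arrays, and no difference between HN30/DDP and HN30 can be given.

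ZEB2 lay near background throughout. Its brightest probe had levels of -4.26 in HN4, -4.97 in HN4/DDP, where it was dim, -4.20 in HN30 and -4.38 in HN30/DDP, and it was at least 1.64-fold lower in HN4/DDP than in HN4. In HN30/DDP the difference of -0.17 was within the scanner SD of 0.36. A second probe was well above background only on HN30, at -4.62, and was at least 1.25-fold lower in HN30/DDP. The last, designed on the noncoding transcript NR_033258, was dim on all 4 arrays.

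**Figure D2:**
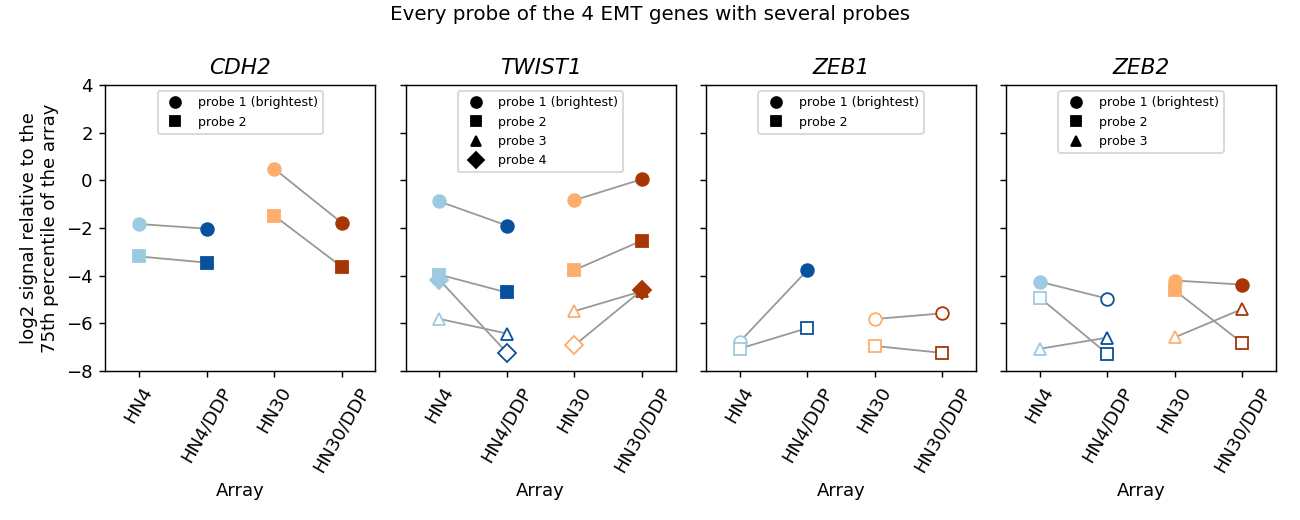
Level of every probe (log2 signal relative to the 75th percentile of the array) of the 4 genes with several probes; grey lines join each resistant array to its parental array, and hollow symbols are not well above background. Both CDH2 probes were highest on HN30, both TWIST1 mRNA probes (1 and 2) were lower in HN4/DDP and higher in HN30/DDP, and most ZEB1 and ZEB2 values were at background.

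The legend of the study counts genes past a log fold change of 2 without giving the base, which is taken here as a log2 difference of 2. At that threshold the set held 3 genes called higher in HN4/DDP (VIM, SNAI1 and ZEB1) of 10 tested, where tested means well above background on at least 1 array of the pair. ZEB1 reached the threshold by its measured value and not by its bound. Over all 26853 genes tested in that pair, 3.61% were called higher and 2.2% lower. SNAI2 was the 1 gene called lower. In HN30/DDP 9 genes were tested, 0 were called higher and 1, CDH2, was called lower, against 8.37% and 2.75% of 28330 genes. At a difference of 1, HN4/DDP had 3 higher and 2 lower, against 9.31% and 8.65% of all genes, and HN30/DDP had 3 higher (CDH1, SNAI1 and FN1) and 1 lower, against 19.8% and 13.3%. The HN30 pair as a whole had more genes past either threshold than the HN4 pair.

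The median difference of the 10 genes was 0.17 in HN4/DDP, with 5 above 0 and 5 below, beside a median of -0.077 over all tested genes. In HN30/DDP it was 0.88 over 9 genes, with 7 above 0, beside 0.057. Scaling the arrays to their medians moved the median of all tested genes in HN30 to -0.36 and that of the set to 0.46. Among all tested genes, 98.5% lay below SNAI1 and 98.1% below VIM in HN4/DDP, and 86.6% and 79.1% in HN30/DDP. At the other end, 1.19% lay below SNAI2 in HN4/DDP and 1.83% below CDH2 in HN30/DDP.

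**Figure D3:**
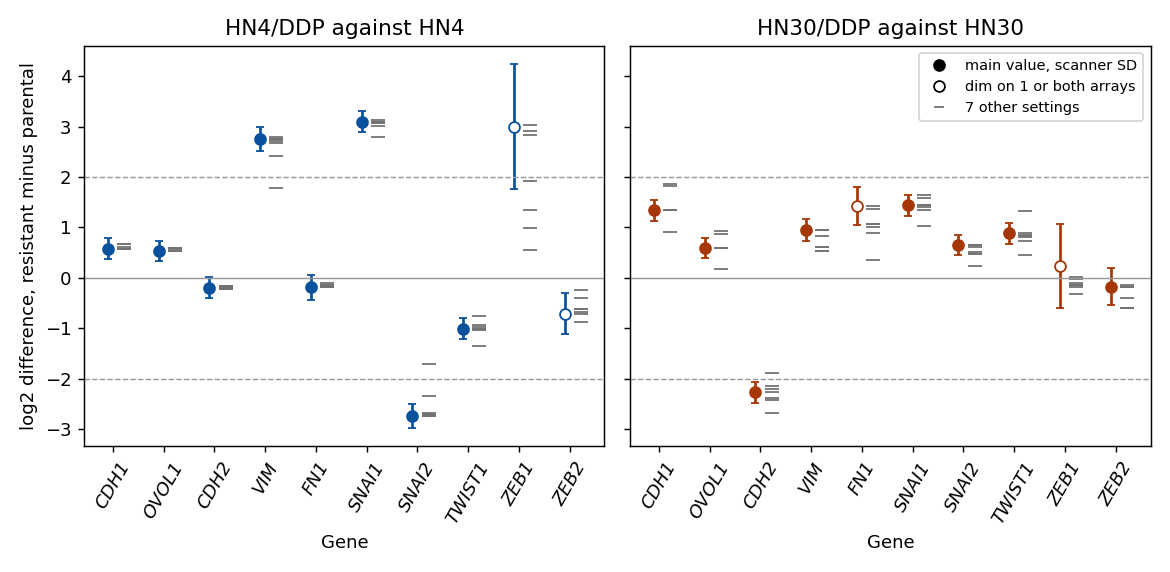
Log2 difference of each gene, resistant minus parental, in the HN4 pair and the HN30 pair; points carry the scanner SD, hollow points are dim on 1 or both arrays, grey marks are the 7 other ways of processing, and dashed lines are the threshold of 2. In the HN4 pair VIM, SNAI1, SNAI2 and ZEB1 (hollow, dim in HN4) lay past the threshold, and in the HN30 pair CDH2 did.

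Set side by side, the differences of the 2 lines were compared for the members well above background on all 4 arrays, which leaves out FN1, ZEB1 and ZEB2. The difference in HN30 minus that in HN4 was 3.40 for SNAI2 (scanner SD 0.31), 1.89 for TWIST1 (0.29) and 0.76 for CDH1 (0.29). It was -2.08 for CDH2 (0.30), -1.81 for VIM (0.32) and -1.66 for SNAI1 (0.29). For OVOL1 it was 0.06 with a scanner SD of 0.29. The values of CDH1 and OVOL1 depended on the scaling. With median scaling OVOL1 had differences of 0.57 in HN4 and 0.17 in HN30, and with quantile normalization 0.58 and 0.94, so that which line had the larger one turned, while CDH1 had 0.62 and 0.92 with median scaling. None of these could be tested between lines, as each rests on 4 single arrays.

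Before resistance the parental lines already differed in CDH2, which was 5.01-fold higher in HN30 than in HN4 (log2 2.32), with 0.904% of 25890 genes called higher and 1.9% lower in that comparison. Its second probe gave 1.71. SNAI1 was 2.32-fold higher in HN30 (1.22) and VIM 1.86-fold higher (0.89), while CDH1 was 2.19-fold lower (-1.13) and FN1 at least 2.86-fold lower. At a difference of 1 these were 2 genes higher and 2 lower, beside 3.32% and 7.08% of all tested genes. OVOL1 (0.21), TWIST1 (0.05) and SNAI2 (-0.38) differed by at most 0.38 between the parental lines. This comparison shares its arrays with both resistant comparisons, so the high CDH2 level in HN30 enters it and the HN30 pair alike.

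The only comparison with replicates set both resistant arrays against both parental arrays, with a term for the cell line, in a limma fit over 29521 genes with Benjamini-Hochberg adjustment. Its p-values measure the spread between these 2 lines, with 1 residual degree of freedom before moderation. SNAI1 was 2.27 higher in the resistant arrays (SE 0.56, unadjusted p = 0.0128, adjusted p = 0.499) and VIM 1.85 higher (SE 0.55, unadjusted p = 0.0236, adjusted p = 0.517), each in 2 of 2 lines. CDH1 was 0.96 higher (SE 0.39, limma adjusted p = 0.602). The adjusted p of the other 7 genes was 0.661 to 0.984. The fit called 0 genes at an adjusted p of 0.05 among all genes, and 2537 had an unadjusted p under 0.05. With median scaling it called 297 genes, none of them one of these 10.

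The antisense transcripts of members were measured beside them, 4 of 5 listed being on the array. ZEB1-AS1 had levels of -1.84 in HN4 and -1.16 in HN4/DDP, and -2.34 in HN30 and -0.57 in HN30/DDP. It was 1.59-fold higher in HN4/DDP (log2 0.67) and 3.40-fold higher in HN30/DDP (1.76, scanner SD 0.21), where ZEB1 itself was dim on both arrays. The dimmer ZEB1-AS1 probe was well above background only on the resistant arrays, at least 1.13-fold and 1.23-fold higher there. ZEB2-AS1 was well above background only on HN30/DDP, at -1.81, and was at least 7.05-fold higher there than in HN30. OVOL1-AS1 was so only on HN4/DDP, at -3.59, at least 2.26-fold higher than in HN4. The 2 VIM-AS1 probes disagreed. The brighter had levels of -1.52, -2.32, -1.55 and -3.24 and was 1.74-fold lower in HN4/DDP and 3.22-fold lower in HN30/DDP. The dimmer was well above background only on the resistant arrays, and was at least 1.45-fold and 1.47-fold higher there.

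Among 20 other transcription factors tied to the transition, 14 were tested in the HN4 pair, with 0 called higher and 1 lower, and 15 in the HN30 pair, with 1 higher and 1 lower. For this and the following lists the shares over all tested genes were 3.61% higher and 2.2% lower in the HN4 pair and 8.37% and 2.75% in the HN30 pair, with medians of -0.077 and 0.057. The median of these factors was -0.27 in HN4/DDP and 0.07 in HN30/DDP, the latter 0.38 after quantile normalization. ID1, an inhibitor of helix-loop-helix factors and a target of BMP signalling, was the one called lower in HN4/DDP (log2 -2.02). FOXQ1 was lower in both lines, with differences of -1.65 and -1.75, and KLF8 was lower in HN4/DDP (-1.53). ID2 was higher in both, by 1.43 and 1.21, as was SNAI3, by 1.33 and 1.91, and ID3 was higher in HN4/DDP (1.00). In HN30/DDP the chromatin factor HMGA2 was lower (-2.68, with its 3 probes from -2.68 to -0.61), ETS1 was lower (-1.36), SOX4 was 0.75 higher and PRRX2 was at least 7.93-fold higher than in HN30, where it was dim.

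The 11 epithelial transcription and splicing factors that stand with OVOL1 were all tested in both pairs. GRHL3, a grainyhead factor of epidermal differentiation, was the 1 called higher in HN4/DDP (5.49) and was 1.40 higher in HN30/DDP. GRHL2, its relative, was lower in both, with differences of -1.61 and -0.44. The other GRHL2 probe gave -0.77 and -0.34. The splicing factor ESRP2 was the 1 called lower in HN30/DDP (-2.08) and had a difference of -0.58 in HN4/DDP, where ESRP1 had -0.90. EHF was 0.92 higher in HN4/DDP, while ELF3 and KLF4 were 1.44 and 1.40 higher and OVOL2 was lower (-0.90) in HN30/DDP. The median was 0.64 in HN4/DDP and 0.27 in HN30/DDP, the latter 0.69 after quantile normalization.

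Of 32 genes of adherens and tight junctions, 31 were tested in each pair. In HN4/DDP 2 were called higher and 1 lower, in HN30/DDP 3 and 0, where 8.37% and 2.75% of all tested genes were. The medians were 0.14 and 0.06, the latter 0.56 after quantile normalization and -0.014 with the mean of probes. NECTIN4, named PVRL4 on the array, was called higher in both lines, by 2.64 and 2.81, as was the tight junction protein CLDN3, by 2.42 and 2.99. TJP3 was 1.15 higher in HN4/DDP and 3.61 in HN30/DDP, where it was called. CDH13, the cadherin without a cytoplasmic tail, was called lower in HN4/DDP (-3.37, and -2.23 from its other measured probe). CLDN1 (-1.65) and MAL2 (-1.95) were lower there. In HN30/DDP the lowest differences of the list were those of MARVELD3 (-1.54), OCLN (-1.25) and CRB3 (-0.73).

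Of 44 mesenchymal and invasion genes, 39 were tested in the HN4 pair, with 3 called higher and 5 lower, and 38 in the HN30 pair, with 3 higher and 3 lower, beside shares over all tested genes of 3.61% and 2.2%, and of 8.37% and 2.75%. The medians were -0.017 and -0.15, which were 0.044 and -0.0057 after quantile normalization. The matrix protein THBS1 was called lower in HN4/DDP (-3.25, and -1.99 from its other probe) and stood at -1.98 in HN30/DDP. COL5A1 (-2.84, with its 3 probes from -5.24 to -1.16), the receptor kinase AXL (-2.22) and the collagen-modifying enzyme PLOD2 (-2.21) were also called lower in HN4/DDP, while COL5A2 was called higher (2.10) and the urokinase receptor PLAUR was 1.61 higher. PDPN, podoplanin, was at least 2.18-fold lower in HN4/DDP and 2.14 higher on the log2 scale in HN30/DDP. SPARC and THBS2 were dim in HN4 and at least 1.57-fold and 1.15-fold higher in HN4/DDP. These 2, PDPN in HN4/DDP and MMP3 in HN30/DDP passed the threshold by measured values and not by their bounds. The actin-filament protein TPM2 was higher in both lines, by 1.23 and 2.68, and smooth muscle actin ACTA2 was called higher in HN30/DDP (2.11). TAGLN (-2.84) and the collagenase MMP1 (-2.48) were called lower in HN30/DDP, where MMP3 was at least 1.90-fold lower.

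Of 35 genes of TGF-beta and BMP signalling, a main inducer of the transition, all were tested in both pairs. In HN4/DDP 1 was called higher and 5 lower, in HN30/DDP 3 and 1. The shares over all tested genes were the same as for the lists above. The medians were 0.10 and 0.19, which were 0.22 and 0.23 after quantile normalization. The HN4 median was -0.055 with the mean of probes, and the HN30 median was 0.035 with normexp. INHBA, the activin A subunit, was called lower in both lines, with differences of -4.85 and -2.76. GDF15, a stress-induced ligand of the same superfamily, was called higher in both, by 3.72 and 5.18. Also called lower in HN4/DDP were TGFB2, at least 7.91-fold, the inhibitory SMAD6 (-3.33), LTBP2 (-2.28) and BMP2 (-2.20), while TGFBR3 was 1.42 higher. LTBP1, which holds TGF-beta latent in the matrix, was 1.29 higher in HN4/DDP and at least 10.04-fold higher in HN30/DDP, where INHBB was at least 4.95-fold higher. FST (-1.77) and BMPR2 (-0.95) were lower and NOG (1.64) and LTBP3 (1.25) higher in HN30/DDP.

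**Figure D4:**
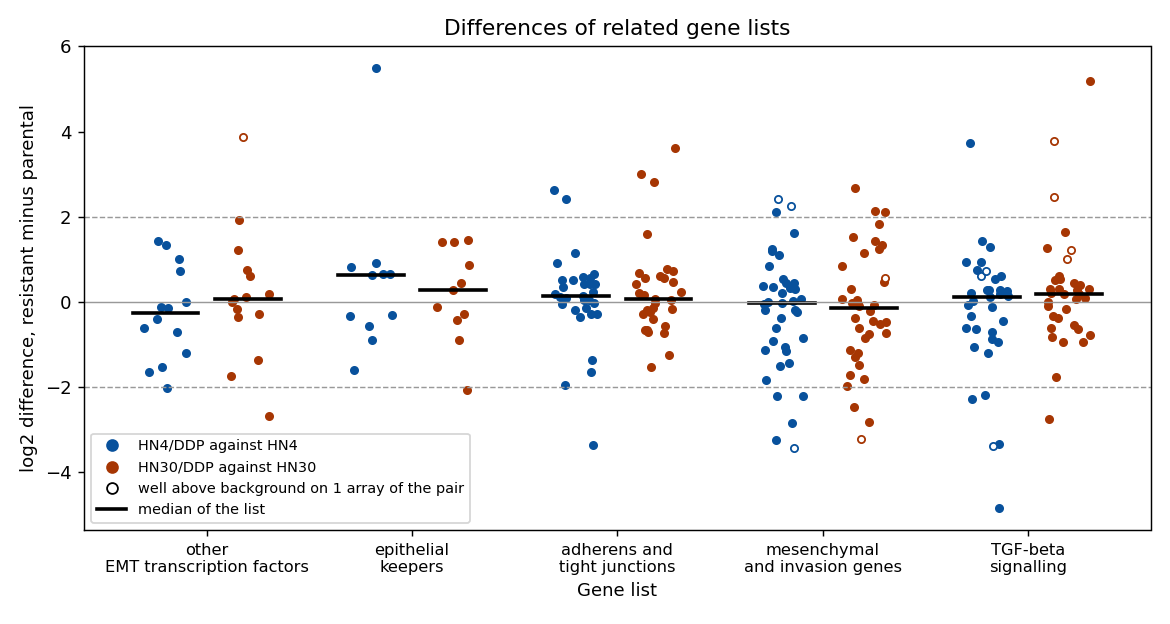
Log2 difference, resistant minus parental, of the tested genes of 5 related lists in each pair of lines; black bars are list medians, hollow points are well above background on 1 array of the pair, and dashed lines are the threshold of 2. List medians lay between -0.27 and 0.64 while single genes ran from -4.85 to 5.49.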

How the data were processed

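RNA of 4 cultures was measured on 1-colour Cy3 arrays (Agilent SurePrint G3 Human v3), 1 per condition, so n is 1. The authors deposited scanner files of Agilent Feature Extraction 10.7.1.1 (version from the submitters' processing notes) with a background-subtracted intensity per spot and hg19 coordinates, and a table of log2 values for 58341 entries, each column with a median of 4.65, whose normalization no source used here states. Differences from it correlated across 38652 probes with those computed here (r = 0.999 in HN4, 0.968 in HN30; probes are not replicates). Here, log2 intensity minus the 75th percentile of 60901 non-control spots per array was used, outlier spots were left out and spots of a probe averaged; the brightest probe stood for a gene. A gene was called above a log2 difference of 2, or below -2, if well above background on the higher array. A bound ("at least") uses the higher of the lowest signal well above background on the dim array and the dim probe's own signal. limma 3.58.1 (R 4.3.3) was tested on simulated data. The members and lists were chosen with earlier results of these data known, and the CANNTG search after seeing the promoters. Other genes named are, in each list and line, the 3 highest and 3 lowest differences where both arrays were well above background, and every gene called; some items are not reported here. Alternatives were normexp (offset 50), quantile and median scaling, a pseudocount of 16, dim signals at the bound, the deposited values, the mean of probes and a threshold of 1. With 4 arrays in all, their number limits the precision.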

Additional observations from a re-analysis of the deposited data

Results flagged for a closer look

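SNAI2 and TWIST1 differed in opposite directions in the 2 lines. SNAI2 had a log2 difference of -2.75 in HN4/DDP against HN4 and of 0.65 in HN30/DDP against HN30. TWIST1 had -1.01 and 0.88. Each line has 1 array per condition, and this difference of the 2 lines was not tested.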

How the results depend on the processing

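Every gene of the set kept its sign in both resistant comparisons under all 7 other ways of computing the values, except ZEB1 in HN30, dim on both arrays, which kept it under 1 of 7. Of 210 single differences, those of the parental comparison included, 170 moved by less than the scanner SD. With normexp the set had 1 gene higher and 0 lower in HN4/DDP, in place of 3 and 1, and none (0) lower for HN30, in place of 1, and the other lists had 22 in place of 37 calls, counted over both pairs, so that a gene called in both counts in each; with dim signals at the bound there were 32. The shares over all tested genes under normexp are not given here, so these lower counts are no result about the set or the lists. With quantile normalization list medians in HN30/DDP were 0.38 in place of 0.07 for the other transcription factors, 0.69 in place of 0.27 for the epithelial factors and 0.56 in place of 0.06 for the junction genes. With a threshold of 1 the set had 2 lower in HN4/DDP and 3 higher in HN30/DDP, in place of 1 and 0. The median of the set in HN30/DDP, 0.88, was 0.53 with normexp and 0.46 with median scaling. limma called 297 genes with median scaling (242 higher, 55 lower) and 0 under the other 8 alternatives, with 2009 to 3261 at an unadjusted p under 0.05; the cause was not tested. In the parental comparison TWIST1 had a difference of 0.05 from its brightest probe and of -0.55 as the mean of its probes. By replicate number, no paired analysis was possible because the labels number every array replicate 1. The arrays are paired by cell line in the limma fit, which without that term called 0 genes, with 3261 at an unadjusted p under 0.05. With 1 array per condition no array was left out. A slide block was not run, since all 4 arrays lay on 1 slide. Low signal over background limits ZEB1, ZEB2 and FN1. It also limits the HN4 differences of VIM, whose signal in HN4 was 48.4, and of SNAI2, whose signal in HN4/DDP was 41.2. With normexp those differences were 1.78 and -1.72.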
